A study of Mus musculus with 21 samples.

Results

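The 9 genes described here make, load or take back up the small-molecule transmitters of neurons. They are Gad1, Gad2 and Slc32a1 for GABA, Th, Ddc, Slc18a2 and Slc6a3 for dopamine, Hdc for histamine and Chat for acetylcholine, chosen by symbol among the 25239 genes of each deposited table. Messenger RNA was sequenced in bulk from dissected hypothalamus and from choroid plexus, the epithelium that secretes cerebrospinal fluid, of wild-type C57BL/6J mice. In the Ins2 group the mouse insulin gene Ins2 was overexpressed in the choroid plexus, and the control group is labelled as not treated. Hypothalamus gave 5 Ins2 libraries (replicates 1 to 5) and 5 control libraries (replicates 1 to 4 and 6). Choroid plexus gave 6 Ins2 and 5 control libraries. The labels do not say how Ins2 was introduced, nor the age or sex of the mice, nor whether each replicate was an animal of its own. The tests therefore cover the spread among the libraries, part of which may be technical. Column names of the hypothalamus controls begin with GFP in the deposited values, and whether those mice received a vector is not settled here.

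GABA, the main inhibitory transmitter, is made from glutamate by the decarboxylases encoded by Gad1 and Gad2 and is packed into synaptic vesicles by the transporter encoded by Slc32a1. Tyrosine hydroxylase (Th) and aromatic amino acid decarboxylase (Ddc) make dopamine, the vesicular monoamine transporter (Slc18a2) packs it, and the plasma membrane dopamine transporter (Slc6a3) takes it back up after release. In the hypothalamus, GABA neurons are widespread, arcuate dopamine neurons restrain prolactin release from the pituitary, and the tuberomammillary nucleus is the brain's source of neuronal histamine, which Hdc makes from histidine and Slc18a2 also packs. Choline acetyltransferase (Chat) makes acetylcholine, and the gene of the vesicular acetylcholine transporter, Slc18a3, lies within the Chat locus.

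Hypothalamus libraries held 27.4 to 62.1 M reads in genes (M, 1e+06) and choroid plexus libraries 25.95 to 36.3 M. Values are reads divided by the library's size factor, called normalised reads here, with each tissue scaled in a table of its own. In choroid plexus, Ins2 was at 598 to 1041 normalised reads in Ins2 libraries, against 387 to 501 in control libraries (fold 1.90, limma adjusted p = 0.00594). In hypothalamus Ins2 had no read in 9 of 10 libraries. The hypothalamic marker Nkx2-1, a transcription factor, was at 1873 to 2224 in Ins2 and 1957 to 2379 in control hypothalamus, and every gene of a list of 27 hypothalamic markers had a mean of at least 10. Dbh, which turns dopamine into noradrenaline and marks noradrenaline neurons, was at 5.75 or less in all 10 hypothalamus libraries. Tph2, the enzyme of neuronal serotonin synthesis, was at 6.33 to 20.7 in Ins2 and 4.47 to 27.4 in control hypothalamus.

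Per exon length, the GABA genes had the highest levels among the 9 in hypothalamus. Slc32a1 had a median over the 10 libraries of 87.3 reads per kb of exon per M reads (range 60.7 to 92.0), Gad1 82.5 (77.5 to 88.8) and Gad2 63.2 (58.3 to 71.5). The ranges of Slc32a1 and Gad1 overlapped, whereas every Gad1 value lay above every Gad2 value. Before division by length the medians were 360 reads per M for Gad1 and 363 for Gad2. The order of these genes therefore rests on the annotated exon lengths of 4.365 and 5.744 kb. Slc17a6, which loads glutamate into the vesicles of excitatory hypothalamic neurons, had a level between those of Gad1 and Gad2, with a median of 75.5 reads per kb per M (65.95 to 79.999).

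The amine genes followed at lower levels per length. Ddc had a median of 31.1 reads per kb per M (28.3 to 41.7) and Hdc 28.0 (24.6 to 31.5), with overlapping ranges. Slc18a2 was at 17.8 (15.4 to 24.3), below every Hdc value, and Th at 17.7 (13.9 to 29.3), so these neighbours were not separated. Slc6a3 had a median of 2.80 but reached 18.5 in 1 library, so its range (from 1.77) met those of Slc18a2 and Th. Chat was lowest at 0.424 (0.230 to 0.924), under every Slc6a3 value, and its partners, the loader Slc18a3 (median 0.946) and the choline transporter Slc5a7 (0.489), were also below 1 read per kb per M at the median. In the plot of levels per length, the order of the 9 genes in hypothalamus can be read beside their detection in choroid plexus.

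**Figure D1:**
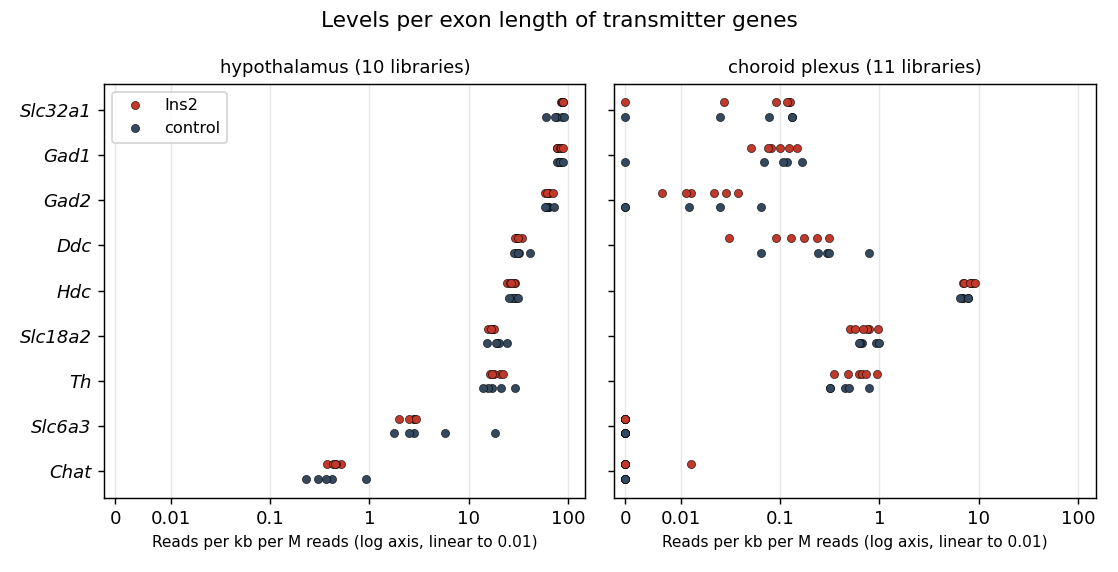
Level of each transmitter gene as reads per kb of exon per M reads (log axis, linear below 0.01) in hypothalamus (left) and choroid plexus (right), 1 point per library, Ins2 above control in each row. The GABA genes stand at 58.3 to 92.0 in hypothalamus and at or below 0.168 in choroid plexus, while Hdc is at 6.56 to 9.21 in choroid plexus. The tables of the tissues were made separately, so levels are shown side by side only.

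No member passed the test between Ins2 and control hypothalamus. Of the 16363 genes tested there (mean of at least 10 normalised reads), limma at an adjusted p of 0.05 called 0 (0.0%), edgeR on recovered whole reads called 0 (0.0%) and DESeq2 called 41 (0.251%). None of these was a member, but DESeq2 gave no adjusted p to 10469 of the genes, Slc6a3 and Chat among them. At an unadjusted p under 0.05, 2 of the 9 members stood out, Slc32a1 on the higher side and Slc18a2 on the lower side, where 9.92% of all tested genes did so (5.85% higher and 4.08% lower). The ranges of the Ins2 and control groups overlapped for all 9 members, and did not for 1.5% of all tested genes. In these bulk samples fewer cells of a type and less RNA per cell cannot be told apart.

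**Figure D2:**
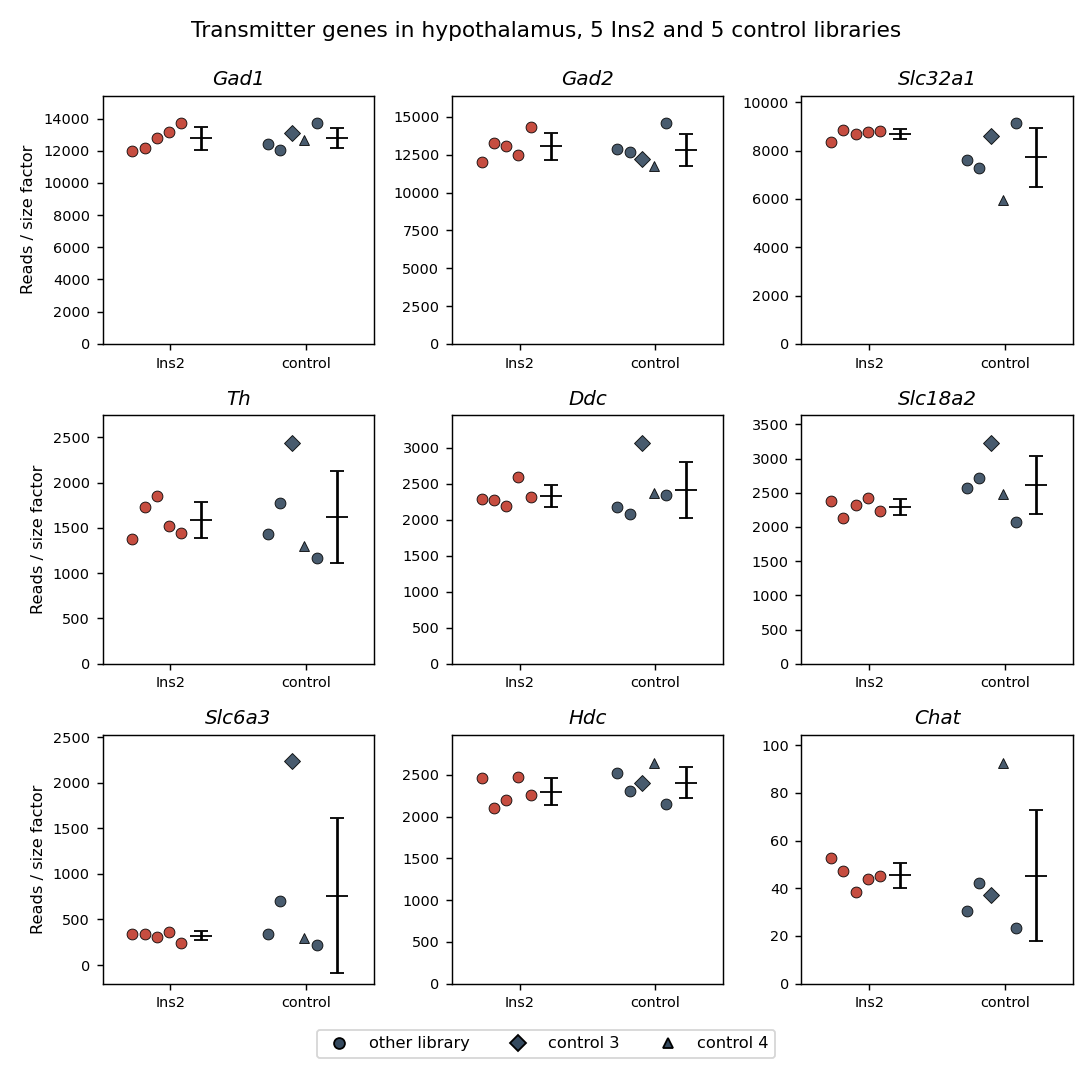
Normalised reads of the 9 genes in each hypothalamus library (linear axes, different in each panel), with the mean and SD (bars) of 5 Ins2 and 5 control libraries beside the points. Control 3 (diamond) lies far above the rest for Slc6a3 at 2243, control 4 (triangle) is highest for Chat at 92.6 and lowest for Slc32a1 at 5959, and the Ins2 libraries lie close together for Slc32a1.

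Gad1 (GRCm38 chr2:70553072-70602014, plus strand), which makes most of the brain's basal GABA, was at 11971, 12176, 12793, 13192 and 13695 normalised reads in Ins2 replicates 1 to 5, against 12440, 12022, 13085, 12688 and 13711 in controls 1, 2, 3, 4 and 6. The groups covered nearly the same range, and the means of 12766 ± 712 in Ins2 and 12789 ± 644 in control libraries (SD, n = 5 each) gave a fold of 0.998 with a 95% interval of 0.934 to 1.07 and an adjusted p of 0.988 by limma. Gad2 (chr2:22622205-22693874, plus strand), whose enzyme sits mainly at nerve terminals, was at 12052, 13272, 13076, 12503 and 14367 in Ins2 and 12896, 12678, 12188, 11736 and 14588 in control libraries. Control 4 was lowest and control 6 highest, and the fold of 1.02 (0.942 to 1.103; adjusted p = 0.894) was within the spread between libraries. Gad1 had 129% ± 6.73 of the Gad2 level per length in Ins2 and 132% ± 9.19 in control libraries (SD, n = 5 each), so the balance of the decarboxylase transcripts differed by less than the spread as well.

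Slc32a1 (chr2:158610767-158615748, plus strand), the vesicular GABA transporter, was at 8334, 8846, 8686, 8749 and 8799 in Ins2 hypothalamus, against 7593, 7295, 8605, 5959 and 9133 in control hypothalamus. The Ins2 libraries lay within 8334 to 8846, inside the wider control range, in which control 4 was lowest and control 6 highest. The means were 8683 ± 204 in Ins2 and 7717 ± 1233 in control libraries (SD, n = 5 each), a fold of 1.14 (1.02 to 1.27) with an unadjusted limma p of 0.0249, an adjusted p of 0.442 and an exact permutation p of 0.135. Without control 4 the log2 fold change was 0.10 instead of 0.19 (adjusted p = 0.621), and without control 6 it was 0.25 (adjusted p = 0.127, exact permutation p = 0.0159). The level of Slc32a1 per length was 126% to 144% of Gad2 in Ins2 libraries and 104% to 145% in controls, with the lowest ratio in a control. The 14 pan-neuronal markers summed to 265871 to 275767 in Ins2 and 263594 to 275534 in control libraries, and control 4, lowest for Slc32a1, was the highest of the controls in that sum. Slc32a1 shares 24.9% of its exon bases with Gm14205 on the opposite strand. The strand setting of the counting is not given in the sources used here. Reads of both genes in the shared bases therefore cannot be told apart.

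Other genes of GABA handling came from a list of 10 genes. None passed the test, 8 had a fold change above 0 on the log2 scale and 2 below, and the median log2 fold change was 0.10, where that of all genes tested was 0.001. Slc6a11, a GABA transporter of astrocytes, was at 36404 to 41101 in Ins2 and 31493 to 36423 in control hypothalamus. The groups overlapped only at their edges, and the fold of 1.15 had a limma adjusted p of 0.309, while DESeq2 gave it an adjusted p of 0.0325. Slc17a6, a glutamate loader, was at 10944 to 11826 in Ins2 and 9589 to 11198 in control hypothalamus, a fold of 1.07 (1.0007 to 1.14; adjusted p = 0.501). As a ratio of levels per length, Slc32a1 was 114% ± 4.29 of Slc17a6 in Ins2 and 109% ± 22.8 in control libraries (SD, n = 5 each).

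**Figure D3:**
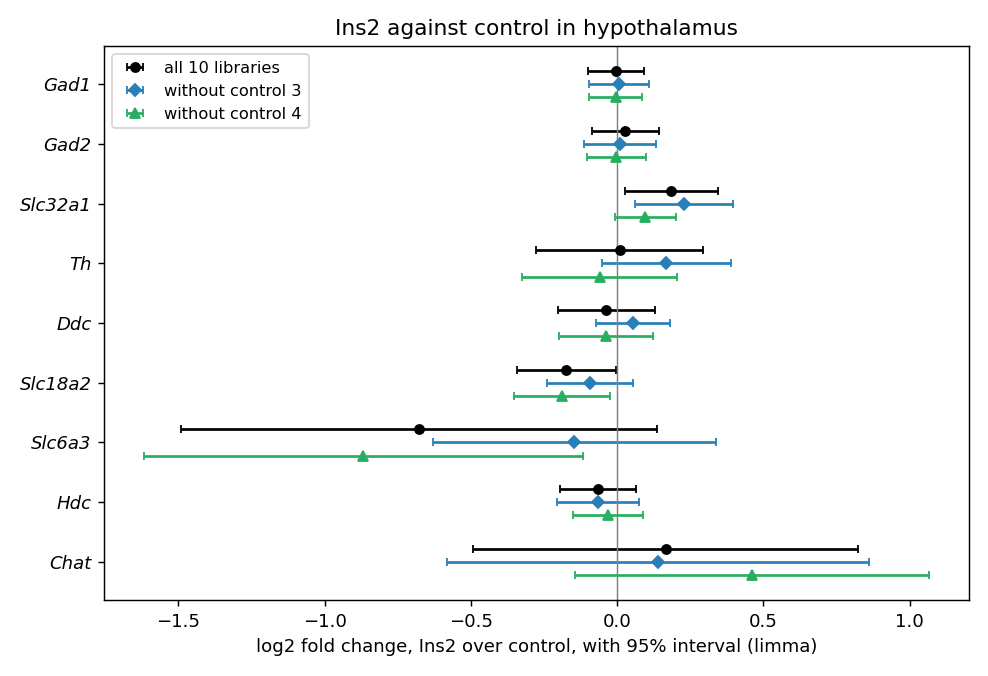
Log2 fold change of each member in hypothalamus, Ins2 over control, with its 95% interval from limma, over all 10 libraries and without control 3 or control 4. The value of Slc6a3 is -0.68 with all libraries and -0.15 without control 3, that of Slc32a1 is 0.19 with all libraries and 0.10 without control 4, and those of Gad1 and Gad2 stay near 0 with narrow intervals.

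Th (chr7:142892752-142931128, minus strand), the rate-limiting enzyme of dopamine synthesis, was at 1383, 1735, 1856, 1525 and 1440 in Ins2 replicates 1 to 5 and at 1438, 1780, 2438, 1299 and 1170 in controls 1, 2, 3, 4 and 6. Controls 3 and 6 enclosed all Ins2 values, and the fold was 1.01 (0.825 to 1.23; adjusted p = 0.988). Without control 3 the fold was 1.12 (0.964 to 1.31; adjusted p = 0.550). Th lies 149371 bases from Ins2 on chromosome 7 with no protein-coding gene between them. Ins2 was overexpressed in choroid plexus and all but undetected in hypothalamus, so the hypothalamus values say nothing about this closeness. An effect of it was not tested.

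Ddc (chr11:11814101-11898144, minus strand), which turns L-DOPA into dopamine, was at 2295, 2270, 2199, 2592 and 2313 in Ins2 and 2185, 2086, 3069, 2377 and 2345 in control hypothalamus. Control 3 was highest, and the fold of 0.975 (0.870 to 1.09; adjusted p = 0.905) lay within the spread. The Th level per length was 52.1% to 74.7% of Ddc in Ins2 libraries and 44.2% to 75.6% in controls, lowest in control 6 and highest in control 2.

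Slc18a2 (chr19:59260896-59296012, plus strand), the monoamine loader, was at 2384, 2132, 2314, 2417 and 2228 in Ins2 hypothalamus, against 2576, 2716, 3228, 2483 and 2066 in control hypothalamus. Apart from control 6, which was the lowest of all 10, every control lay above every Ins2 library. The means of 2295 ± 116 in Ins2 and 2614 ± 420 in controls (SD, n = 5 each) gave a fold of 0.886 (0.788 to 0.997), with an unadjusted limma p of 0.0443, an adjusted p of 0.493 and an exact permutation p of 0.151. Without control 6 the log2 fold change was -0.26 instead of -0.17 (adjusted p = 0.110). The groups then no longer overlapped, which fixes the exact permutation p at 0.00794, the smallest these libraries can give. That p follows from which library was left out and is no further support for a difference. Without control 3 it was -0.09 (adjusted p = 0.615). Slc18a2 serves several amines, and its level per length was 51.6% to 58.2% of Ddc in Ins2 and 48.7% to 72.0% in control libraries.

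Slc6a3 (chr13:73536747-73578672, plus strand), the dopamine reuptake transporter, was at 346, 346, 313, 367 and 245 in Ins2 hypothalamus and at 342, 706, 2243, 302 and 217 in control hypothalamus. Control 3 was far above and control 2 above every other library, while the remaining 3 controls lay within or just below the Ins2 range. The fold of 0.625 had an interval of 0.356 to 1.098 (adjusted p = 0.583, exact permutation p = 0.389). Without control 3 the fold was 0.904 (0.647 to 1.26; adjusted p = 0.836), without control 4 it was 0.548 (0.326 to 0.921; adjusted p = 0.519) and without control 6 it was 0.504 (0.297 to 0.857; adjusted p = 0.242). On recovered reads the log2 fold change was -1.24 with edgeR (adjusted p = 0.381) and with DESeq2, which gave no adjusted p, against -0.68. Relative to Th per length, Slc6a3 stood at 11.5% to 17.1% in Ins2 libraries, at 62.9% in control 3, at 27.1% in control 2 and at 12.7% to 16.2% in the other controls.

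Control 3 stood apart in several genes of dopamine neurons. Against the median of the other 9 libraries (on the value + 1 scale), Slc6a3 was 6.55 times as high in control 3, the second highest ratio of 16363 genes, Th 1.69 times, Slc18a2 1.35 times and Ddc 1.34 times, while Gad1 (1.03 times) and Hdc (1.04 times) were near the median. En1, a transcription factor of midbrain dopamine neurons, was at 135 in control 3, against 0 to 52.2 in Ins2 libraries and 3.89 to 55.9 in the other controls. Pitx3, needed by midbrain dopamine neurons, was at 32.3 in control 3 but at 44.3 in Ins2 replicate 1, and Foxa2 was 1.73 times the median in control 3 but 1.89 times in Ins2 replicate 3. Slc10a4, a vesicle protein of amine and cholinergic neurons, named here after its values were seen, was at 501 in control 3, against 121 to 195 in Ins2 libraries and 162 to 271 in the other controls. En2, another factor of these neurons, was 1.85 times the median in control 3. It was at 114 there, against 29.9 to 83.7 in Ins2 libraries and 19.0 to 84.4 in the other controls. Further factors were nearer to or below the median in control 3, with Lmx1a at 1.12 times, Lmx1b at 1.09 times, Foxa1 at 0.978 times and Nr4a2 at 0.833 times.

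A list of 11 markers of midbrain dopamine neurons without Th and Slc6a3, none of them at 0 in all libraries, summed to 4940 to 5747 in Ins2 hypothalamus and 4785 to 6497 in controls, with control 3 highest. Aldh1a1 alone made up a large part of this sum, at 2164 to 2480 in Ins2 libraries and 2047 to 2626 in controls, also highest in control 3. The 27 hypothalamic markers summed to 70111 in control 3, within the control range of 60499 to 70372 and next to the Ins2 range of 61127 to 68334. The part of these markers in the Slc6a3 result was not tested. In the plot of dopamine genes by library, control 3 and, less far, control 2 lie above the others for Slc6a3, En1 and Slc10a4.

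**Figure D4:**
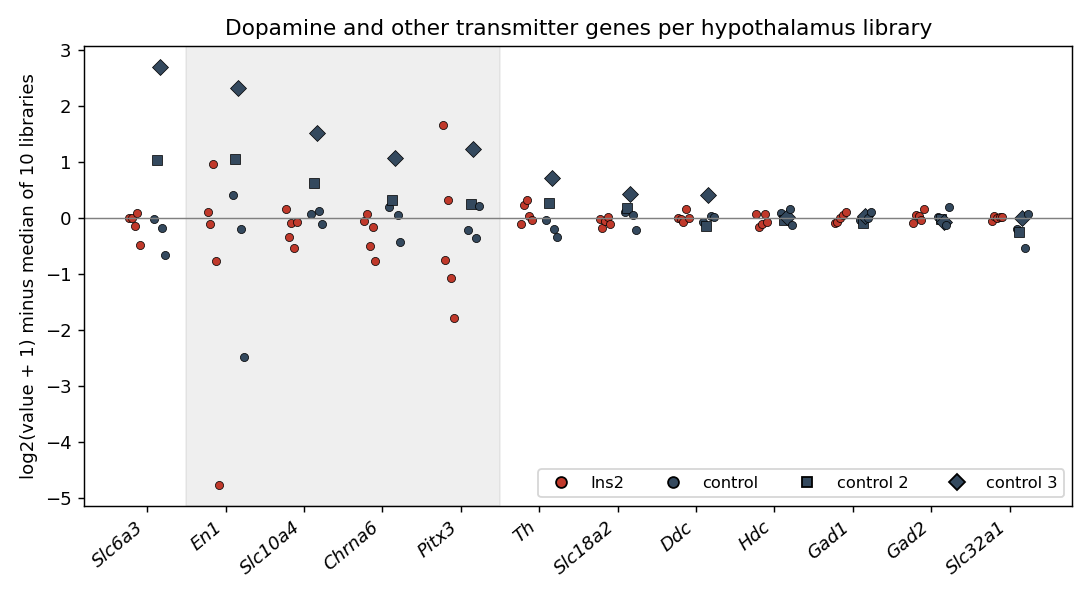
Log2(value + 1) of each gene in each hypothalamus library minus the median of the 10 libraries, with Ins2 points left of control points and markers that are not members on grey. Control 3 (diamond) is highest for Slc6a3, En1, Slc10a4, Chrna6, Th, Slc18a2 and Ddc, and near 0 for Hdc and the GABA genes. The lowest En1 point is Ins2 replicate 5, listed at 0.

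The promoters of the 4 dopamine genes are shown because their transcripts were raised together in control 3. They run from 250 bases before to 50 after the RefSeq start (GRCm38.p6), 5′ to 3′ on the gene's strand, with the named motif in capitals. A cAMP response element (CRE, TGACGTCA, searched on both strands) is in the Th window at position -45 and in the Slc18a2 window at position -4, in 2 of the 10 windows of the members (Ddc has 2 starts) and in 1.79% of all 32851 windows. The Slc6a3 window holds 3 GC boxes (GGGCGG, both strands) between positions -66 and -9. This motif is in 5 of the 10 windows of the members and in 35.7% of all windows. The Th and Slc18a2 windows hold it too, not in capitals there. The window of the upstream Ddc start holds an NBRE (AAAGGTCA, here on the opposite strand, overlapping a TATA box, TATAAA, on that strand) at position -73, a motif in 1.51% of all windows. The window of the other Ddc start (chr11:11890359-11890658, not printed) holds none of the motifs searched. Which Ddc start these libraries used was not tested. A match describes letters only.
Th, chr7:142899946-142900245, minus strand: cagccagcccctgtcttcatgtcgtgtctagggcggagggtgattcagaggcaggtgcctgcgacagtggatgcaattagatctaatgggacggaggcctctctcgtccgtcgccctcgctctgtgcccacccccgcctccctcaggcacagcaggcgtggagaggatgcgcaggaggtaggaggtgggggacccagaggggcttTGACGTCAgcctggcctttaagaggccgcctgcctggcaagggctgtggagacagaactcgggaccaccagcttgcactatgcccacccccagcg
Slc18a2, chr19:59260628-59260927, plus strand: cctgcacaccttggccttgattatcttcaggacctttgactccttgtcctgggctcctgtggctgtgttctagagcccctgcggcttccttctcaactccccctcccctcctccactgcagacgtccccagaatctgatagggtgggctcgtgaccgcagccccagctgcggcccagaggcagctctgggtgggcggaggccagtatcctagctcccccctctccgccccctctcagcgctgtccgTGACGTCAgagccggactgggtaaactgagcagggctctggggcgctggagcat
Slc6a3, chr13:73536497-73536796, plus strand: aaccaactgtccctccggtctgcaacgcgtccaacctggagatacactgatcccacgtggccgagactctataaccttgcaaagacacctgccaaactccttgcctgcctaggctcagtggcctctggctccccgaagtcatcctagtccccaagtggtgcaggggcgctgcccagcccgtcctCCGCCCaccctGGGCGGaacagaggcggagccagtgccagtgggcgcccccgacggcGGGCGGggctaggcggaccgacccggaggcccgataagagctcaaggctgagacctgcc
Ddc, chr11:11898095-11898394, minus strand: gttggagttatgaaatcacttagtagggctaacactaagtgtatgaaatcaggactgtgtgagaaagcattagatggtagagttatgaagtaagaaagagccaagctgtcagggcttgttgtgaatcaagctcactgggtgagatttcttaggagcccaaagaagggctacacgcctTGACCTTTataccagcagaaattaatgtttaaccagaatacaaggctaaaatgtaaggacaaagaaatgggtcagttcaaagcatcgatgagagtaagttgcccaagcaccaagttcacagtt

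Of the other genes of catecholamine synthesis and breakdown, 11 of 14 were tested and none passed, with 3 above 0, 8 below 0 and a median log2 fold change of -0.03. Gch1, which makes the cofactor of Th, was at 193 to 276 in Ins2 and 176 to 278 in control hypothalamus (fold 1.03, adjusted p = 0.940). Maob, a monoamine oxidase, was at 1876 to 2095 in Ins2 and 1909 to 2262 in controls (fold 0.946, adjusted p = 0.682). The noradrenaline transporter Slc6a2 and the serotonin transporter Slc6a4 had at most 13.8 and 10.3 normalised reads. None of the 10 transcription factors of dopamine neurons passed, at a median log2 fold change of -0.06.

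Hdc (chr2:126593667-126619299, minus strand), the only enzyme of histamine synthesis, was at 2465, 2101, 2200, 2470 and 2254 in Ins2 hypothalamus and at 2522, 2312, 2400, 2644 and 2156 in control hypothalamus. The groups interleaved, with means of 2298 ± 164 in Ins2 and 2407 ± 188 in controls (SD, n = 5 each) and a fold of 0.955 (0.874 to 1.04; adjusted p = 0.745). Hdc was 150% to 164% of Slc18a2 per length in Ins2 libraries and 118% to 169% in controls. Other markers of tuberomammillary neurons (7 genes without Hdc and Slc18a2) summed to 5868 to 6542 in Ins2 and 5937 to 7385 in controls, highest in control 4, where Hdc was highest too. Hnmt, which inactivates histamine, was at 731 to 842 in Ins2 and 651 to 982 in controls (fold 0.968, adjusted p = 0.894). Of the 5 other histamine genes none passed, at a median log2 fold change of 0.13.

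Chat (chr14:32408203-32465989, minus strand) was at 52.7, 47.2, 38.4, 43.7 and 45.3 in Ins2 hypothalamus and at 30.6, 42.2, 37.2, 92.6 and 23.3 in control hypothalamus, or 18 to 82 reads per library. Control 4 was above all, and the other 4 controls were below the median of the Ins2 values. With all libraries the fold on the log2(value + 1) scale was 1.12 (0.710 to 1.77; adjusted p = 0.888, exact permutation p = 0.659), while the means were 45.5 ± 5.21 in Ins2 and 45.2 ± 27.4 in control libraries (SD, n = 5 each). On recovered reads its log2 fold change was 0.022 with edgeR and 0.019 with DESeq2, against 0.17. Without control 4 the fold was 1.38 (0.906 to 2.09; adjusted p = 0.698, exact permutation p = 0.0238). Slc18a3 in control 4 was 0.483 times the median of the other libraries, so it was low where Chat was high. Slc18a3 was at 59.1 to 86.2 in Ins2 and 38.9 to 103 in controls (fold 1.25, adjusted p = 0.703), and Slc5a7 at 52.9 to 105 in Ins2 and 52.2 to 155 in controls (fold 0.943, adjusted p = 0.940). Lhx8, a factor of forebrain cholinergic neurons, was at 10.8 to 28.8 in Ins2 and 7.61 to 46.2 in controls.

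Control libraries spread more than Ins2 libraries for 8 of the 9 members by the coefficient of variation, all but Gad1. The same held for 69.3% of the 16363 genes, with a median coefficient of variation of 7.39% in Ins2 and 10.3% in control hypothalamus. Across all 88 genes of the transmitter lists, 82 were tested in hypothalamus and none passed. Of these, 51 had a log2 fold change above 0 and 31 below, with a median of 0.04.

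Some genes followed a member closely across the 10 hypothalamus libraries. The values are Pearson correlations of log2(value + 1), the highest of 14246 genes searched, so they describe these libraries only. Slc32a1 was most like Elmsan1 (r = 0.974, Spearman's rho = 0.842) and Iqsec3 (r = 0.965, rho = 0.782), and without controls 4 and 2 r was 0.854 and 0.867. Slc6a3 was most like Slc18a2 (r = 0.905, rho = 0.697) and the nicotinic receptor gene Chrna6 (r = 0.888, rho = 0.709), and without controls 3 and 2 these were 0.605 and 0.680. Th was most like Chrnb3 (r = 0.925, rho = 0.830), another nicotinic receptor gene, and Rhbdf2 (r = 0.911, rho = 0.891), at 0.753 and 0.775 without controls 3 and 6. Slc18a2 was most like Qars (r = 0.926, rho = 0.855), at 0.940 without controls 3 and 6, and next most like Slc6a3, as above.

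Hdc was most like Nradd (r = 0.936, rho = 0.915) and Arhgap36 (r = 0.935, rho = 0.964), at 0.956 and 0.874 without control 4 and Ins2 replicate 2. Gad1 was most like Lrp12 (r = 0.898, rho = 0.939) and Dcxr (r = 0.878, rho = 0.806), at 0.883 and 0.723 without control 6 and Ins2 replicate 5. Gad2 was most like Srgap2 (r = 0.922, rho = 0.952) and Zfp54 (r = 0.905, rho = 0.927), at 0.861 and 0.887 without the same libraries. Ddc was most like Prr14 (r = 0.940, rho = 0.758) and Gtf2ird2 (r = 0.903, rho = 0.685), at 0.702 and 0.625 without control 3 and Ins2 replicate 4. The pair of GABA decarboxylases did not name each other, and only Slc18a2 and Slc6a3 did.

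In choroid plexus the GABA genes, Slc6a3 and Chat were at or near the detection limit. Slc6a3 had 0 reads in all 11 libraries. For a library taken alone, a level of 0.0827 to 0.116 reads per M, or 3 reads by counting error alone, would still be possible. A limit for a level shared by all 11 libraries would be lower. Chat had 1 read in Ins2 replicate 6 and none elsewhere. Gad2 was at 1.11 to 6.30 in Ins2 and 0 to 11.2 in control choroid plexus, Slc32a1 at 0 to 10.4 in Ins2 and 0 to 11.2 in control, and Gad1 at 6.59 to 18.9 in Ins2 and 0 to 21.6 in control. As levels per length, the medians were 0.0996 reads per kb per M for Gad1, 0.0921 for Slc32a1 and 0.0128 for Gad2, beside 82.5, 87.3 and 63.2 in hypothalamus.

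Hdc was highest, with 465 to 638 normalised reads in every choroid plexus library, and Slc18a2 (59 to 130 reads) and Th (21 to 61 reads) were also above the floor of 3 reads in all 11. Its level per length was 7.73 reads per kb per M (6.56 to 9.21), beside 28.0 in hypothalamus. Choroid plexus Hdc was at 493, 509, 603, 609, 574 and 638 in Ins2 replicates 1 to 6 and at 549, 498, 487, 465 and 552 in controls 1 to 5. Of the 6 Ins2 libraries 4 lay above every control and the other 2 within the control range. The means of 571 ± 57.9 in Ins2 (SD, n = 6) and 510 ± 38.7 in control (n = 5) gave a fold of 1.12 with an interval of 0.982 to 1.27 (adjusted p = 0.829, exact permutation p = 0.0844). The exact permutation p was 0.0317 without Ins2 replicate 1 and 0.0556 to 0.162 without each of the other 10 libraries, highest without control 4. The log2 fold change in hypothalamus minus that in choroid plexus was -0.23, with an unadjusted p of 0.0441 and an adjusted p of 0.459 over 13997 genes, of which 15 (0.107%) passed and none was a member.

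Markers of 2 cell types known to make histamine were set beside choroid plexus Hdc. Of 8 mast cell genes, a list chosen after the values were seen, 6 were at 0 in all 11 libraries (Cpa3, Mcpt4, Tpsb2, Tpsab1, Fcer1a and Ms4a2), and the list summed to 483 to 687 in Ins2 and 506 to 697 in control, nearly all of it Kit. The 7 other markers of tuberomammillary neurons summed to 4490 to 5283 in Ins2 and 4297 to 4901 in control choroid plexus, mostly Maob, and 2 of them, Hmx2 and Hmx3, were at 0 in all 11 libraries. The monoamine oxidase Maob was at 4480 to 5262 in Ins2 and 4271 to 4874 in control choroid plexus (fold 1.05, adjusted p = 0.881), and Hnmt at 907 to 1125 in Ins2 and 833 to 999 in control (fold 1.11, adjusted p = 0.812). The Hdc promoter window (GRCm38.p6, chr2:126618629-126618928, minus strand) is printed because Hdc had the highest choroid plexus level of the 9 members, with its GC box (GGGCGG) at position -48 in capitals.
Hdc: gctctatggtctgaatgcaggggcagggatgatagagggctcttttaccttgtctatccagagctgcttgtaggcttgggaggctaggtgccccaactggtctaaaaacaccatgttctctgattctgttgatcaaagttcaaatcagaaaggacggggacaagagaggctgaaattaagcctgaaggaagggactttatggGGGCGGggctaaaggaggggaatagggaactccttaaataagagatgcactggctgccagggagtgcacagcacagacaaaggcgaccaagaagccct

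The remaining amine genes had fewer reads in choroid plexus. Slc18a2 was at 86.9, 86.0, 111, 75.7, 56.5 and 62.0 in Ins2 replicates 1 to 6 and at 104, 112, 77.1, 72.3 and 70.2 in controls 1 to 5, with overlapping groups (fold 0.910, adjusted p = 0.954). Th was at 43.9, 24.8, 66.9, 33.4, 46.2 and 50.4 in Ins2 and 54.6, 31.8, 22.8, 34.7 and 22.7 in control libraries. Control 1 lay above all Ins2 libraries but replicate 3, and the fold was 1.33 with an interval of 0.849 to 2.08 (adjusted p = 0.890). Ddc was at 14.6, 5.79, 10.98, 7.79, 1.88 and 18.9 in Ins2 and 18.5, 49.9, 19.6, 3.96 and 15.1 in control libraries, with control 2 highest (log2 fold change -0.91, adjusted p = 0.868). Without control 2 the log2 fold change of Ddc was -0.53, and without control 4 it was -1.37.

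Choroid plexus control 2 also stood apart in markers of brain tissue. Its 12 oligodendrocyte markers summed to 54633, against 2390 to 5804 in Ins2 and 2358 to 3069 in the other controls. Its 27 hypothalamic markers, 6 of them at 0 in all 11 libraries (Lhx8, Six6, Fezf1, Crh, Hmx2 and Hmx3), summed to 767, against 75.6 to 129 in Ins2 and 60.8 to 114 in the other controls. The part of these markers in the Ddc value was not tested. Of the 9 members 5 reached a mean of 10 and were tested in choroid plexus (Gad1, Th, Ddc, Slc18a2 and Hdc), and none was called, where limma called 2 of 14533 genes (0.0138%), edgeR 2 (0.0138%) and DESeq2 34 (0.234%). DESeq2 gave no adjusted p to 9582 of the 14533 genes, the 5 members among them, so its share also counts genes it could not call. None of the 5 had an unadjusted p under 0.05, where 6.21% of the genes did, and none had groups that did not overlap, where 0.626% did.

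**Figure D5:**
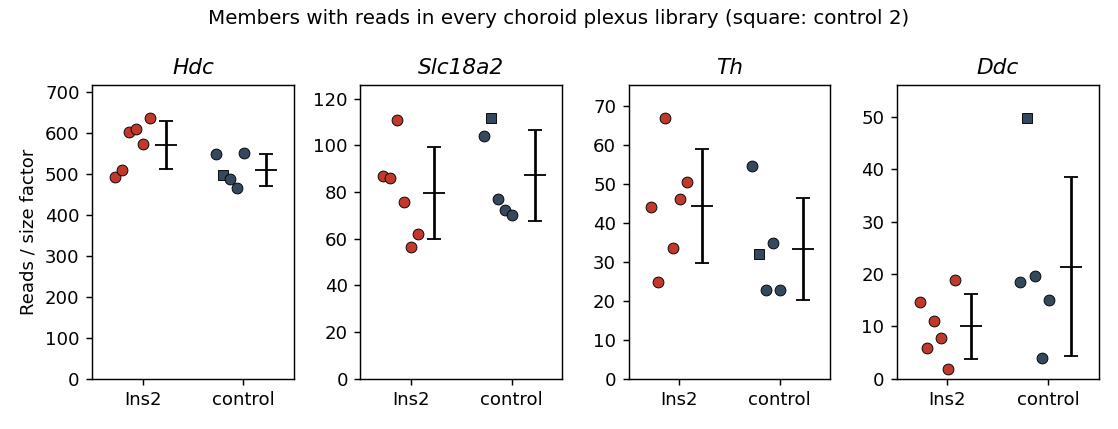
Normalised reads of Hdc, Slc18a2, Th and Ddc in each choroid plexus library (linear axes from 0, different in each panel), 6 Ins2 and 5 control, with the mean and SD (bars) beside the points. Hdc lies between 465 and 638, 4 of 6 Ins2 libraries are above every control for Hdc, and control 2 (square) is highest for Ddc at 49.9.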

How the data were processed

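Per the labels' protocols, a PicoPure kit was used for RNA and directional libraries with dUTP marking were prepared from poly(A) transcripts. Reads were aligned with HISAT2, counted with featureCounts and scaled with DESeq2 on GRCm38 (mm10), per the submitters' processing notes, with versions and strand setting not given in the sources used here. The authors deposited 1 table per tissue of signal values, gene counts divided by DESeq2 size factors. Dividing by the smallest step gave whole reads, within 0.02, for 100% of values, and each total is the sum of those reads. All sample columns were used.

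Within each tissue limma 3.58.1 (R 4.3.3, lmFit and eBayes with a trend, no covariate) was run on log2(value + 1) over genes with a mean of at least 10. P-values are two-sided with Benjamini-Hochberg adjustment at 0.05, and intervals are at 95% confidence. Fold changes are on that log2 scale. For low genes they can be larger or smaller than the ratio of the group means. Single genes also had a two-sided exact permutation test of the group labels, with 252 arrangements in hypothalamus (smallest p 0.00794) and 462 in choroid plexus (smallest p 0.00216), not adjusted over genes. The difference between tissues was tested per gene from both limma fits with Welch-Satterthwaite degrees of freedom. Alternatives were edgeR 4.0.16 and DESeq2 1.42.0 on recovered reads, pseudocounts of 0.5 and 5, no filter or a mean of 50, equal totals, a replicate block and leaving out libraries. The block used only replicate numbers present in both groups. It therefore left out Ins2 replicate 5 and control 6 in hypothalamus and Ins2 replicate 6 in choroid plexus. Levels per length used exon lengths of GENCODE vM21, and promoters came from RefSeq (GRCm38.p6), in which all 9 members matched.

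The members and lists were chosen with earlier results of these data known. The text names the 9 members, set partner and marker genes and the 2 genes most like each member with a mean of at least 50, and says where a gene was chosen later. Values of some list genes are not reported here. The limma step was tested on simulated data. No pair of libraries of a group was alike enough to be 1 library deposited again: the lowest chi-square per gene was 5.55 in hypothalamus and 7.05 in choroid plexus.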

Additional observations from a re-analysis of the deposited data

Results flagged for a closer look

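Of 32 groups of values examined, 2 held a library far from the others of its group, and chance marks about 1 in 20 groups. Slc6a3 in hypothalamus control 3 was at 2243 normalised reads, against 217 to 706 in the other 4 controls, a gap of 0.759 of the group's range where the critical value is 0.710. Chat in hypothalamus control 4 was at 92.6, against 23.3 to 42.2 in the other 4 controls, a gap of 0.728 of the range.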

How the results depend on the processing

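No member with an adjusted p was called in either tissue under the settings tried, but DESeq2 gave none to Slc6a3 and Chat in hypothalamus or to the 5 members tested in choroid plexus, and Chat in hypothalamus and Gad1, Th and Ddc in choroid plexus were not tested at a mean of 50. No direction of Slc32a1, Slc18a2, Slc6a3 or Hdc in hypothalamus changed. Near 0, Th had a log2 fold change of -0.0051 with equal totals, -0.034 with edgeR and DESeq2 and -0.064 with the replicate block, and Chat -0.025 with the block, against 0.0086 and 0.17. As the block fit also lacked Ins2 replicate 5 and control 6, its values cannot be credited to the block alone. Leaving out each library in turn moved Gad1 over -0.029 to 0.022, Gad2 over -0.0074 to 0.075, Th over -0.097 to 0.17, Ddc over -0.086 to 0.053 and Chat over -0.024 to 0.46 in hypothalamus, and Gad1 over -0.26 (without control 5) to 0.86 in choroid plexus. Without controls 3 and 4 together, a setting added after seeing the data, Gad1 was at 0.0051, Gad2 at -0.036 and Ddc at 0.081.

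Over all genes, hypothalamus calls were 41 with DESeq2, 57 with the replicate block and 0 to 18 on leaving out a library (18 without control 6, 1 without control 4), against 0. The 57 calls came from a fit that also lacked Ins2 replicate 5 and control 6. Choroid plexus calls were 34 with DESeq2, 1 at a mean of 50 and 1 to 4 on leaving out a library (4 without Ins2 replicate 5, 1 each without Ins2 replicates 1 or 4 or control 4), against 2. DESeq2 gave no adjusted p to 10469 hypothalamus and 9582 choroid plexus genes, and called 1 list gene in each tissue, in hypothalamus Slc6a11. Members with an exact permutation p under 0.05 in hypothalamus numbered 0 to 2 on leaving out a library (Slc32a1 and Slc18a2 without control 6, Chat without control 4) and 1 without controls 3 and 4, against 0. In each of these single omissions the control left out was the one farthest against the difference. Filters, count models and the block do not apply to the permutation test.

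Same-numbered libraries did not deviate together (correlations of -0.070 to 0.009 in hypothalamus and -0.148 to 0.140 in choroid plexus), so the labels' replicate numbers were not taken as pairs. For Chat, at 18 to 82 reads, and for the low choroid plexus members, depth limits what can be seen, and the causes of the moves above were not tested.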

Other observations

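Some transmitter genes outside the 9, named here after their values were seen, carried other patterns. Slc6a9, the glycine transporter of glia, was at 5428, 5773, 6085, 5678 and 5494 normalised reads in Ins2 hypothalamus, against 4756, 5162, 5311, 4648 and 5283 in control hypothalamus. Every Ins2 library lay above every control (fold 1.13, adjusted p = 0.316, exact permutation p = 0.00794, which is the lowest value of this test), where 1.5% of all tested genes had groups that did not overlap. In choroid plexus Slc6a9 was at 360 to 591 in Ins2 and 579 to 775 in control libraries (fold 0.762, adjusted p = 0.498), and the difference of its log2 fold changes, hypothalamus minus choroid plexus, was 0.57 (adjusted p = 0.0545 over 13997 genes). Choroid plexus control 2, high in brain markers, was the highest of these controls at 775.

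Slc17a7, the glutamate loader of cortical neurons, was at 30.6, 117, 108, 105 and 87.6 in Ins2 hypothalamus, against 35.8, 26.2, 28.4, 40.6 and 49.3 in controls. Of 5 Ins2 libraries 4 lay above every control and replicate 1 within them (log2 fold change 1.19, adjusted p = 0.316, exact permutation p = 0.0317). The 13 cortex and hippocampus markers, Slc17a7 among them, summed to 20946 to 22309 in Ins2 and 20225 to 22424 in controls. The 13 thalamus markers summed to 28302 to 31015 in Ins2 and 25786 to 29128 in controls. Slc17a6, also the loader of excitatory hypothalamic neurons, made up a large part of this sum, at 10944 to 11826 in Ins2 and 9589 to 11198 in controls. Both Slc17a6 and the sum were lowest in control 3, so the sum is not a measure of thalamus alone. The part of these markers in the Slc17a7 value was not tested.

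Choroid plexus held vesicular transporters other than those of the 9. Slc17a8, a glutamate loader, was at 1010 to 1688 in Ins2 and 1016 to 1606 in control choroid plexus (fold 1.01, adjusted p = 0.989), with a median of 9.50 reads per kb per M, above Hdc at 7.73. Slc18a1, the monoamine loader of endocrine cells, was at 266 to 352 in Ins2 and 308 to 345 in control choroid plexus (fold 0.995, adjusted p = 0.995), with a median of 3.52 reads per kb per M beside 0.692 for Slc18a2.

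Bpifa1, an airway secretory gene, was the gene farthest above the median of the other 9 libraries in 5 of the 10 hypothalamus libraries. On the value + 1 scale it was 253 times as high in Ins2 replicate 5, 567.8 times in control 2, 173 times in control 3, 1173 times in control 4 and 51.6 times in control 6. Slc6a3 was 0.710 times the median in Ins2 replicate 5, 2.06 times in control 2, 6.55 times in control 3, 0.874 times in control 4 and 0.628 times in control 6.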
